A study of Mus musculus with 8 samples.

Results

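Genomic imprinting was followed through 44 mouse genes that lie outside the Dlk1-Dio3 locus, a set taken from a list of gene symbols and found by exact match in a gene table of 23284 entries. All 44 listed symbols were present. The RNA came from a pair of cloned mouse embryonic stem (ES) cell lines. In clone 6 doxycycline induces a Ctcfl transgene, which clone 7 lacks. Ctcfl (BORIS) is normally a germline protein and a relative of Ctcf, the insulator protein that binds several imprinting control regions.

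The 4 groups were clone 6 without doxycycline, clone 6 with 2 µg/ml doxycycline, clone 7 without doxycycline and clone 7 with 2 µg/ml doxycycline. All groups had been grown on mouse embryonic fibroblast (MEF) feeders and then kept off them for 48 h. The strain label of every library is "mixed". Each group holds 2 libraries of 75 bp single-end reads, 1 from each of 2 experiments. The labels call them biological replicates without saying how far the cultures were separate, so p-values say nothing of spread beyond these samples. Each line is 1 clone, so a difference between the lines cannot be told apart from a difference between any 2 clones.

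An imprinted gene is transcribed mainly from the allele inherited from 1 parent. The choice is set by DNA methylation laid down in the egg or the sperm at imprinting control regions, and it is kept in the embryo by Zfp57, Trim28 and the maintenance methyltransferase Dnmt1. Many imprinted genes sit in clusters that share a control region, and many regulate growth of the fetus and placenta. In cultured ES cells imprints are known to be lost or gained in single clones. The values here are total transcript levels, which carry no allele information, so imprinting itself was not measured.

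Expression was deposited by the authors in FPKM, read fragments scaled to transcript length and to the mapped fragments of the group, with 1 value per gene and group. No value per library was used, so levels carry no SD and library depth is unknown. The group FPKM values summed to between 717813 and 737443. A gene is described as called where the authors' deposited table reports a test with a q-value (a p-value adjusted for multiple testing) under 0.05. The standard error (SE) of a log2 ratio is the ratio divided by the deposited test statistic.

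The ES cell labels were compared with marker genes. Pou5f1, the ES cell transcription factor, was at 1011 to 1116 FPKM. Of 12 ES cell markers tested, Nanog and Zfp42 were called higher and Sox2 lower in clone 6 in both media. At an unadjusted p under 0.05 it was 7 in each medium. Esrrb, Klf2 and Klf4 were the lower in clone 6 in both, Utf1 without doxycycline and Sall4 with it. Of 20 fibroblast markers none was at 0 and 18 were tested, with none called in any of the 4 comparisons of the authors' deposited table, and 2 (Col1a1 and Col5a1) at an unadjusted p under 0.05 in each clone comparison. Their summed level was 1035 FPKM in clone 6 and 871 FPKM in clone 7 without doxycycline, and 1048 and 883 FPKM with it, a ratio of 1.19 in both media. Of the 18 tested, 15 were higher in clone 6 without doxycycline and 13 with it. Lum, which marks fibroblasts, was at 0.314 to 0.506 FPKM, and Col1a1, a fibroblast collagen, at 86.8 to 139.6 FPKM. Markers of the primitive streak and mesoderm, a list of 10, summed to 120.1 and 127 FPKM in clone 6 against 15.8 and 14.0 FPKM in clone 7. Without doxycycline 7 were tested and with it 8. All of these were higher in clone 6 at an unadjusted p under 0.05, and 5 were called in each medium. Trophoblast markers, a list of 10 that includes the imprinted gene Ascl2, summed to 225 and 373 FPKM in clone 6 against 84.6 and 74.5 FPKM in clone 7. Most of that sum was the keratins Krt8 (112, 184, 30.8 and 26.8 FPKM in the 4 groups) and Krt18 (96.3, 167, 41.8 and 35.0 FPKM). These were called higher in clone 6 in both media and higher with doxycycline in clone 6, while no other trophoblast marker was called. All 7 tested trophoblast markers were higher in clone 6 in both media. At an unadjusted p under 0.05 it was 4 without doxycycline (the keratins, Cdx2 and Tfap2c) and 5 with it (these and Hand1). Primitive endoderm markers summed to 10.2 to 11.4 FPKM, with none of 5 called and 1 (Foxa2) at an unadjusted p under 0.05. Over all tested genes, 1.37% were called between the clones without doxycycline and 1.52% with it. The shares at an unadjusted p under 0.05 were 6.59% and 7.90%. In bulk samples of this kind, fewer cells of a type and less RNA per cell cannot be told apart.

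Levels of the imprinted genes spanned a wide range. Of the 44 genes, 35 reached 1 FPKM in every group, 19 reached 10 FPKM in every group, and 8 stayed below 1 FPKM in all groups. None was listed at 0. Gnas, Phlda2, Snrpn and Cd81 led by level in every group, with Gnas the highest. By position, 21 of the genes are on chromosome 7, 8 on chromosome 6 and 5 on chromosome 2, with 4 on chromosome 11, 2 each on chromosomes 10 and 17, and 1 each on chromosomes 9 and 18.

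**Figure D1:**
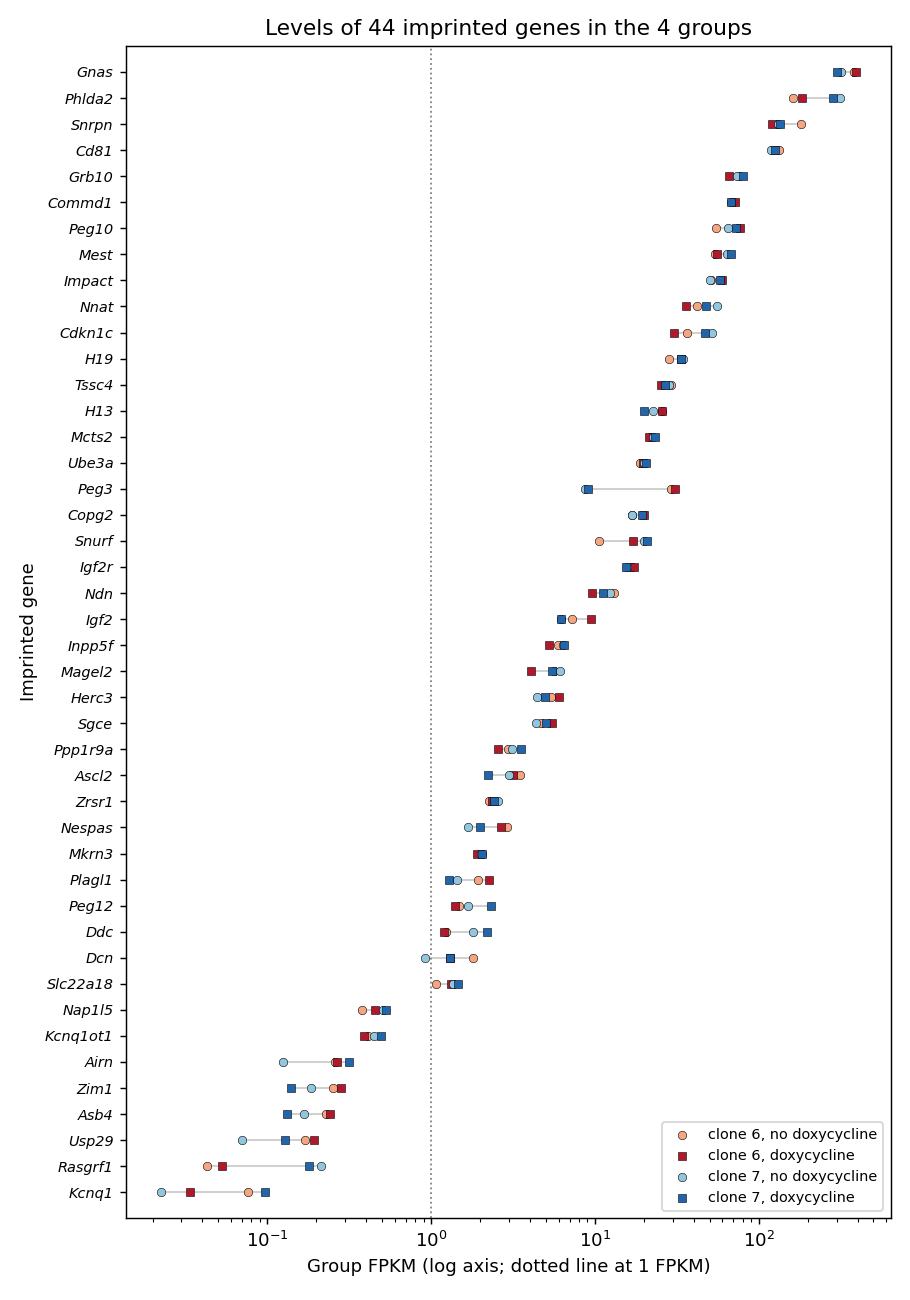
Group FPKM (log axis) of the 44 imprinted genes, ordered by mean level, with 1 point per group and a line from the lowest to the highest group; the dotted line is 1 FPKM. Most genes keep their 4 points close together, while Peg3 and Phlda2 show the clones apart. The 8 genes wholly left of the dotted line include Rasgrf1, which was not tested and whose clones also lie apart.

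Between the clones, Peg3 was higher and Phlda2 lower in clone 6, and no other imprinted gene passed the test. Peg3 encodes a zinc finger protein and is transcribed from the paternal allele, and Phlda2 encodes a pleckstrin homology domain protein that restrains placental growth and is transcribed from the maternal allele. Without doxycycline 38 of the 44 genes were tested in the authors' deposited table, of which 1 was called higher, 1 lower and 36 were not called. Over all 13047 genes tested, 1.37% were called, with 0.797% higher and 0.575% lower. With doxycycline 38 were tested, of which 1 was called, higher in clone 6, beside 1.52% of 13064 genes (0.857% higher and 0.666% lower). The sequences at the starts of these 2 genes are shown with them, since they are the members that the clone comparison called.

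Peg3 lies on chromosome 7 (mm10, 6705960 to 6730419, minus strand, protein coding). Its start faces that of Usp29, the next gene of the cluster. The stretch printed below is a part of the sequence between the 2 starts, outside the exons of both. RefSeq (build GRCm38.p6) gives it at chr7:6730463-6730558, minus strand, with 96 bases, 3 CpG dinucleotides (in capitals) and 60.4% G or C.
Peg3: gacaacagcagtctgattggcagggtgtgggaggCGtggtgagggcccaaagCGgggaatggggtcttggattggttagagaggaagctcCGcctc

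Peg3 stood at 29.2 FPKM in clone 6 without doxycycline, 30.8 FPKM in clone 6 with it, 8.72 FPKM in clone 7 without it and 9.13 FPKM in clone 7 with it. Both values of clone 6 lie above both of clone 7, and the 2 media hardly differ within a clone. The authors' deposited table gives a log2 ratio of 1.74 (SE 0.293, 3.35-fold, p = 5e-05, q = 0.00812) without doxycycline and of 1.76 (SE 0.318, 3.38-fold, p = 5e-05, q = 0.00812) with it. These are the smallest p and q in that table, a floor shared by many other tests, that of Phlda2 without doxycycline among them, so they give Peg3 no rank. The 1.19-fold ratio of the summed fibroblast markers stands beside this, and the part of feeder RNA in the Peg3 difference was not tested.

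The file lists Peg3 at the same locus as Peg3as, an antisense transcript. Peg3as was at 34.9, 37.0, 9.89 and 13.3 FPKM in the order just given, also higher in clone 6. In the authors' deposited table its log2 ratios were 1.82 (SE 1.03, p = 0.0019, q = 0.131) without doxycycline and 1.47 (SE 0.847, p = 0.0101, q = 0.403) with it, and neither passed. No source used here names the strand setting of the counting, and reads of Peg3 and Peg3as may not be separable. The other imprinted genes of the cluster were scarce. Usp29, of the ubiquitin-specific protease family, was at 0.0704 to 0.192 FPKM and Zim1, a zinc finger gene, at 0.139 to 0.283 FPKM, and neither was tested.

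Within 500 kb of Peg3 the file holds 27 other entries, of which 12 were tested without doxycycline and none was called. An unadjusted p under 0.05 was given to 2 of them, Peg3as and the vomeronasal receptor gene Vmn2r29 (0.761 FPKM in clone 6 and 0.198 FPKM in clone 7). The log2 ratios of the 12 ran from -0.77 to 1.95. The 500 kb window was chosen after values were seen.

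Phlda2 lies on chromosome 7 (mm10, 143501548 to 143502524, minus strand, protein coding), in the Kcnq1 cluster. RefSeq (build GRCm38.p6) gives the stretch upstream of its coding transcript at chr7:143502542-143502774, minus strand, with 233 bases, 16 CpG dinucleotides (in capitals) and 66.5% G or C. An exon of a noncoding transcript overlaps it in GENCODE.
Phlda2: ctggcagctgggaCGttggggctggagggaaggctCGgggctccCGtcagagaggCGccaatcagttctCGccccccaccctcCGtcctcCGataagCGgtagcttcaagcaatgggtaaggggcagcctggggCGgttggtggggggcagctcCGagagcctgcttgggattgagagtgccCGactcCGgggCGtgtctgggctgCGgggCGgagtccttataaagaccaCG

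Phlda2 was at 162 FPKM in clone 6 without doxycycline and 182 FPKM with it, against 314 and 284 FPKM in clone 7. Both values of clone 6 are below both of clone 7. Without doxycycline the authors' deposited table gives a log2 ratio of -0.95 (SE 0.125, 1.93-fold lower in clone 6, p = 5e-05, q = 0.00812). With doxycycline the authors' deposited table gives -0.64 (SE 0.140, 1.56-fold lower, p = 0.00405, q = 0.223), so that difference was not called. The SE implied by that deposited p is 0.2229, so the deposited statistic and p do not match here. The lack of a call rests on the deposited p, as the statistic alone would give a smaller one.

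Whether the clone difference of Phlda2 itself changed with doxycycline was tested as the difference of the doxycycline responses. From the statistics the authors deposited it came to 0.31 on the log2 scale (SE 0.188, p = 0.0977 by a two-sided normal test), which is not past the threshold. With the SE taken from the p-values the authors deposited, p was 0.310. In the pairs of groups that differ in both clone and medium, the authors' deposited table gives log2 ratios of -0.78 (q = 0.00812) for clone 6 with doxycycline over clone 7 without, and -0.81 (q = 0.0344) for clone 6 without over clone 7 with. These pairs share libraries with the matched comparisons.

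**Figure D2:**
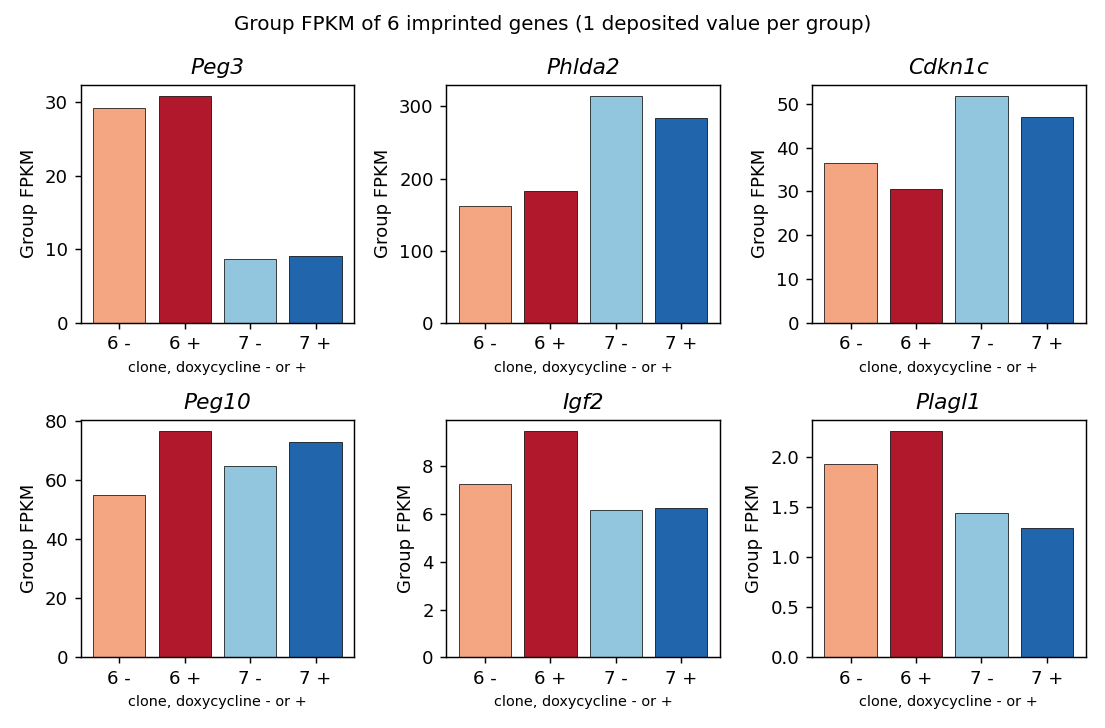
Group FPKM (linear axis from 0, 1 deposited value per group and so no error bar) of Peg3, Phlda2, Cdkn1c, Peg10, Igf2 and Plagl1, with the clone number and - or + for doxycycline under each bar. Peg3 stands about 30 FPKM in clone 6 against about 9 FPKM in clone 7, Phlda2 and Cdkn1c are higher in clone 7, and Peg10 is lowest in clone 6 without doxycycline.

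Phlda2 and its neighbours in the Kcnq1 cluster are silenced on the paternal allele by Kcnq1ot1, a long antisense transcript made from that allele. Cdkn1c, which encodes the cyclin-dependent kinase inhibitor p57, was at 36.6 and 30.5 FPKM in clone 6 and at 51.8 and 46.9 FPKM in clone 7 (without and with doxycycline in each clone, the order used from here on). As for Phlda2, the groups do not overlap and clone 6 is the lower. Such a lack of overlap, in either direction, was found in 60.5% of 12566 genes. The authors' deposited table gives Cdkn1c log2 ratios of -0.50 (SE 0.274, p = 0.0171, q = 0.547) without doxycycline and -0.62 (SE 0.324, p = 0.00825, q = 0.356) with it, so neither passed the threshold.

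Slc22a18, a transporter gene between Cdkn1c and Phlda2, was at 1.07 and 1.33 FPKM in clone 6 and 1.36 and 1.47 FPKM in clone 7. Kcnq1ot1 itself was at 0.389 to 0.496 FPKM, and Kcnq1, a potassium channel gene, at 0.0225 to 0.0977 FPKM and not tested. Tssc4 (25.3 to 29.0 FPKM) and the tetraspanin gene Cd81 (118 to 132 FPKM), farther along the cluster, overlapped between the clones. Ascl2, a basic helix-loop-helix factor of the trophoblast, was at 3.49 and 3.16 FPKM in clone 6 and 3.01 and 2.23 FPKM in clone 7, the opposite order to Phlda2, and was not called.

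Within 500 kb of Phlda2 the file holds 23 other entries, of which 14 were tested without doxycycline, none was called, and only Cdkn1c had an unadjusted p under 0.05. Their log2 ratios ran from -0.52 to 0.37. Nap1l4, a histone chaperone gene and the nearest neighbour on the side away from Cdkn1c, was level across the groups at 71.8, 73.3, 71.1 and 74.0 FPKM.

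**Figure D3:**
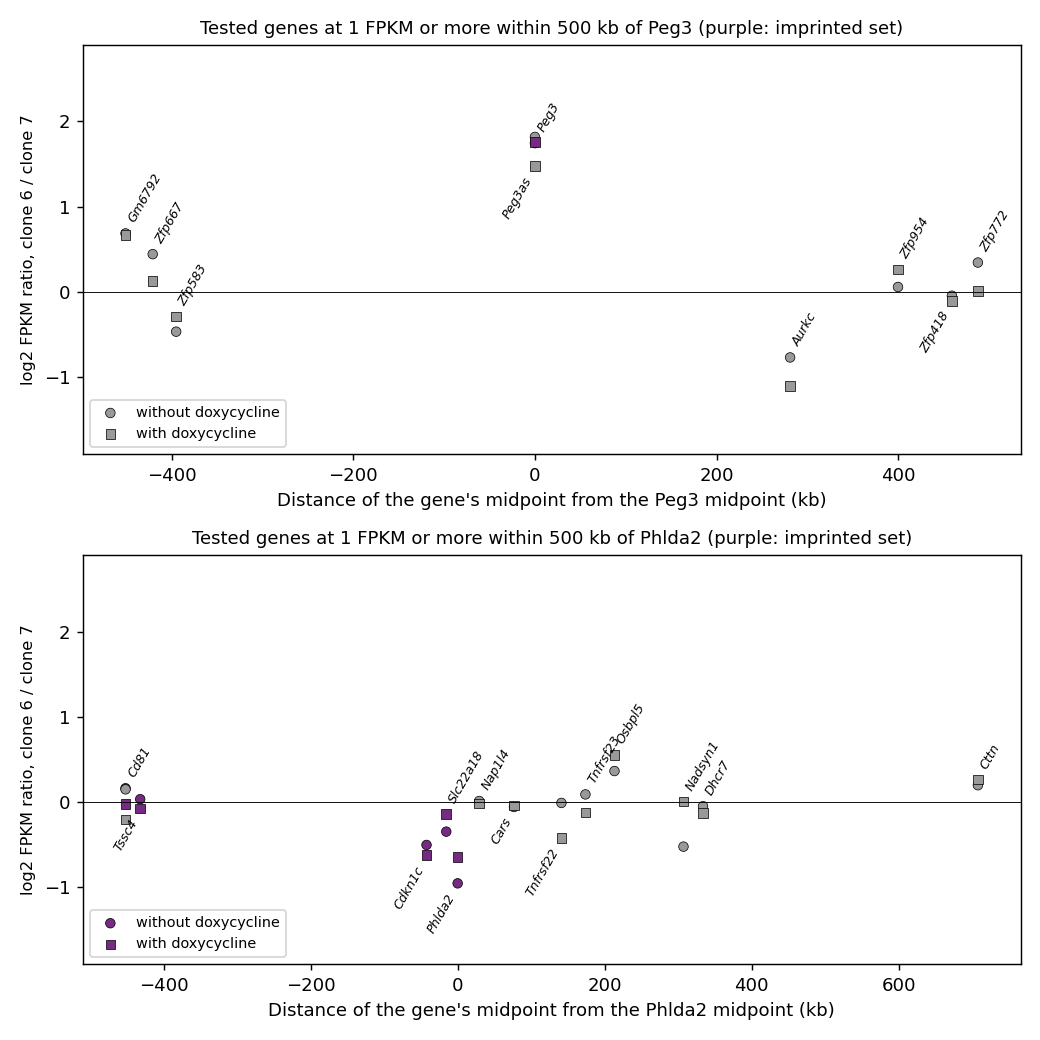
The log2 FPKM ratio of clone 6 to clone 7 against distance in kb from the midpoint of Peg3 (top) and Phlda2 (bottom), for tested genes at 1 FPKM or more in some group, with circles for no doxycycline, squares for doxycycline and purple for the imprinted set (the circle and square of Peg3 coincide, and R74862, at the position of Cd81, has no name printed). Only Peg3 and Peg3as stand above 1 in the top panel, and Phlda2 and Cdkn1c are the lowest purple points of the bottom panel.

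At an unadjusted p under 0.05, a looser rule that was given for description, 3 of the 38 tested genes (7.89%) differed between the clones without doxycycline, beside 6.59% of all tested genes. These were Peg3, Phlda2 and Cdkn1c. With doxycycline it was 5 of 38 (13.2%) beside 7.90%, the same 3 genes with Igf2 and Plagl1. For Cdkn1c, Igf2 and Plagl1 a normal p of the deposited statistic would lie above 0.05, unlike the deposited p. Igf2, the fetal growth factor, was at 7.24 and 9.47 FPKM in clone 6 and at 6.18 and 6.25 FPKM in clone 7. The authors' deposited table gives it a log2 ratio of 0.60 (SE 0.399, 1.52-fold, p = 0.0272, q = 0.709) with doxycycline.

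Plagl1, a zinc finger factor that regulates a network of growth genes, was at 1.93 and 2.25 FPKM in clone 6 and at 1.44 and 1.28 FPKM in clone 7. Its log2 ratio with doxycycline in the authors' deposited table was 0.81 (SE 0.581, 1.75-fold, p = 0.0225, q = 0.640). For Igf2 and Plagl1 clone 6 was above clone 7 in both media, but no q-value passed.

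H19, the maternal noncoding RNA that shares enhancers with Igf2, was at 28.2 and 33.6 FPKM in clone 6 and at 34.5 and 33.3 FPKM in clone 7. Unlike Igf2, its groups overlap between the clones. Igf2r, the receptor that clears the growth factor, was at 15.5 to 17.4 FPKM, and Airn, the noncoding antisense transcript of its locus, at 0.125 to 0.315 FPKM and not tested. Grb10, an adaptor that dampens insulin and growth factor receptor signalling, was at 65.6 to 79.8 FPKM with no order by clone.

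Ddc, Peg12, Nespas and Dcn differed by 1.5-fold or more between the clones in a medium without passing the test, and all were low or overlap another gene. Ddc, which encodes DOPA decarboxylase and lies beside Grb10, was at 1.23 and 1.20 FPKM in clone 6 and at 1.81 and 2.19 FPKM in clone 7 (1.83-fold lower in clone 6 with doxycycline, p = 0.0716 in the authors' deposited table). Peg12, of the Frat family of Wnt regulators, was at 1.48 and 1.41 FPKM in clone 6 and at 1.68 and 2.32 FPKM in clone 7 (1.64-fold lower with doxycycline). Nespas, an antisense transcript of the Gnas locus, was at 2.89 and 2.67 FPKM in clone 6 and at 1.69 and 1.99 FPKM in clone 7, with an SE of 2.31 on the log2 scale. Its value may hold reads of Gnas, which the file puts at the same locus.

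Dcn encodes decorin, a proteoglycan of fibroblast matrix. It was at 1.80 and 1.31 FPKM in clone 6 and at 0.913 and 1.30 FPKM in clone 7. The 1.98-fold ratio without doxycycline (p = 0.0543 in the authors' deposited table) was not seen with doxycycline, where the clones were level. Dcn is itself a gene of fibroblasts, and the summed fibroblast markers were 1.19-fold higher in clone 6 in both media. The part of feeder RNA in the Dcn values was not tested.

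The Snrpn cluster on chromosome 7 gave values that need care. Snrpn encodes a spliceosomal protein and Snurf a small protein read from the same transcript, and the file puts both at 1 locus. Snrpn was listed at 182, 120.0, 131 and 134 FPKM and Snurf at 10.6, 17.1, 19.8 and 20.6 FPKM. For clone 6 without doxycycline the deposited log2 ratios of the 2 genes do not equal the ratios of these values. For Snrpn the authors' deposited table gives -0.28 where the values give 0.47 between the clones without doxycycline, which would put clone 6 without doxycycline at 109 FPKM. For Snurf it gives 0.93 where the values give -0.91, which would put that group at 37.9 FPKM. The other 3 groups, 120.0 to 134 FPKM for Snrpn and 17.1 to 20.6 FPKM for Snurf, do not carry this conflict. Neither gene was called in any of the 4 comparisons, and no direction is given for them. The descriptions of the whole set below keep both genes at their listed FPKM unless stated.

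The MAGE family genes of the cluster were not called in any comparison. Ndn was at 13.1 and 9.60 FPKM in clone 6 and at 12.3 and 11.3 FPKM in clone 7, and Magel2 at 5.59 and 4.05 FPKM and at 6.13 and 5.48 FPKM. For doxycycline in clone 6 the authors' deposited table gives log2 ratios of -0.45 (p = 0.0954) for Ndn and -0.47 (p = 0.078) for Magel2. Mkrn3, a ring finger gene, was at 1.91 to 2.06 FPKM, and Ube3a, a ubiquitin ligase gene that is imprinted in neurons, at 18.9 to 20.6 FPKM.

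The Peg10 cluster on chromosome 6 held the gene with the smallest p for doxycycline among the 44. Peg10, a gene derived from a retrotransposon and needed in the placenta (mm10, chromosome 6, 4747306 to 4760516, plus strand), was at 55.0 FPKM without and 76.5 FPKM with doxycycline in clone 6, and at 64.6 and 72.7 FPKM in clone 7. Clone 6 without doxycycline was the lowest group and clone 6 with doxycycline the highest. The authors' deposited table gives a log2 ratio of 0.48 (SE 0.308, 1.39-fold, p = 0.0057, q = 0.281) in clone 6 and of 0.17 (SE 0.331, p = 0.364) in clone 7. From the statistics the authors deposited, the difference between these responses was 0.30 (SE 0.452, p = 0.501, two-sided normal test), so a response particular to clone 6 was not shown.

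Sgce, which encodes epsilon-sarcoglycan and starts opposite Peg10, was at 4.36 to 5.45 FPKM. Ppp1r9a, which encodes neurabin, was at 2.96 and 2.56 FPKM in clone 6 and at 3.13 and 3.54 FPKM in clone 7, and Asb4, an ankyrin repeat gene, at 0.132 to 0.242 FPKM and not tested. None of the 3 was called.

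No imprinted gene was called for doxycycline in either clone. In clone 6, 37 of the genes were tested in the authors' deposited table and none was called, beside 0.108% of all 13003 tested genes. At an unadjusted p under 0.05 it was 1 gene, Peg10 (2.70%), beside 1.08%, though a normal p of its deposited statistic would lie above 0.05. In clone 7, 38 were tested and none was called, beside 0.00% of 12908 genes. There no imprinted gene had an unadjusted p under 0.05, beside 0.108%, and the smallest p was 0.279, for Peg12. In both clones the share of all genes under 0.05 was below the threshold itself, so a lack of calls does not show a lack of change. The difference of the 2 responses could be tested for 35 of the 44 genes by the two-sided normal test. None was called (Benjamini-Hochberg adjusted p), beside 18 of 12634 genes (0.142%). None had an unadjusted p under 0.05, beside 58 of the 12634. At so low a share, 0 of 35 does not set the imprinted genes apart.

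Ctcfl itself was at 0.403 and 0.995 FPKM in clone 6 and at 0.513 and 0.498 FPKM in clone 7, with q = 0.296 in the authors' deposited table for doxycycline in clone 6. How much of the transgene's transcript this value counts is not stated in the sources at hand.

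**Figure D4:**
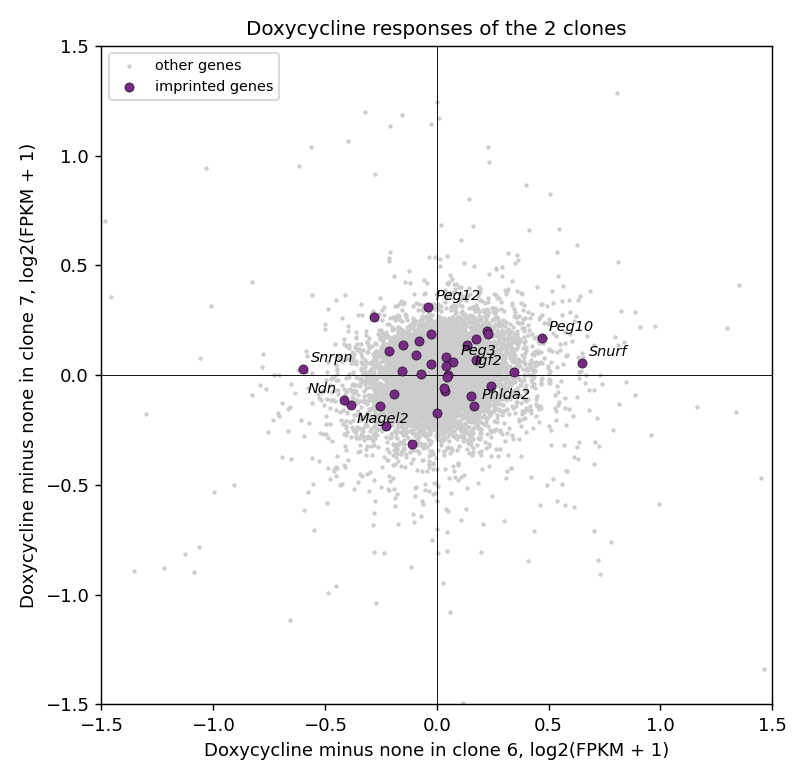
Doxycycline minus no doxycycline on the log2(FPKM + 1) scale in clone 6 (x) and clone 7 (y), for 12566 genes at 1 FPKM or more in some group, 36 of them imprinted (purple); 126 other genes lie outside the axes. The imprinted genes stay within 0.7 of 0 on both axes, with Peg10 to the right of centre, and Snrpn and Snurf at the sides rest on the conflicting values of 1 group.

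The remaining genes passed no test. Gnas, which encodes the stimulatory G protein alpha subunit, was the most abundant at 379.7 and 390.0 FPKM in clone 6 and at 316.5 and 301.3 FPKM in clone 7. Clone 6 was above clone 7 in both media, with a p of 0.0524 with doxycycline in the authors' deposited table. Nnat, which encodes the membrane protein neuronatin, was at 42.1 and 35.8 FPKM in clone 6 and at 55.8 and 47.4 FPKM in clone 7. Mest, of the hydrolase fold family, was at 54.1 and 55.7 FPKM in clone 6 and at 64.2 and 68.1 FPKM in clone 7, with clone 6 below clone 7. Neither Nnat nor Mest was called.

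Several genes were nearly level over the 4 groups. Commd1, a copper and NF-kappaB regulator, was at 67.2 to 71.5 FPKM, and Zrsr1, the retrogene in its intron, at 2.26 to 2.55 FPKM. Mcts2, a retrogene in an intron of H13, was at 21.2 to 23.4 FPKM. Both retrogenes have near copies elsewhere in the genome (Zrsr2 and Mcts1), so their values are uncertain. H13, the signal peptide peptidase gene, was at 25.7 FPKM in both media in clone 6 and at 22.7 and 20.0 FPKM in clone 7.

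Copg2, a coat protein gene beside Mest, was at 16.7 to 19.9 FPKM. Impact, a translation regulator, was at 50.4 to 59.9 FPKM, with the doxycycline group the higher in each clone. Herc3, a HECT domain gene, was at 4.42 to 6.01 FPKM and Inpp5f, a phosphoinositide phosphatase gene, at 5.23 to 6.44 FPKM. Nap1l5, a nucleosome assembly family gene inside Herc3, stayed at 0.380 to 0.534 FPKM. Rasgrf1, a Ras exchange factor gene of the brain, was at 0.0431 and 0.0528 FPKM in clone 6 and at 0.214 and 0.179 FPKM in clone 7. Kcnq1, Rasgrf1, Usp29, Zim1, Airn and Asb4 were the 6 genes tested in none of the 4 comparisons.

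As a set, the imprinted genes had no common direction. On the log2(FPKM + 1) scale, for the 36 genes at 1 FPKM or more, the median difference of clone 6 from clone 7 was 0.01 without doxycycline (20 above, 16 below) and -0.04 with it (16 above, 20 below), beside -0.002 and -0.02 over all genes. With doxycycline over none it was 0.02 in clone 6 (19 above, 17 below) and 0.03 in clone 7 (23 above, 13 below), beside 0.001 and 0.02 over all genes. Centred on the median of all genes, the split in clone 7 was 19 above and 17 below.

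The genes were also grouped by the parental allele that is usually active. The 7 maternally expressed genes at 1 FPKM or more had a median clone difference of -0.19 without doxycycline (3 above, 4 below) and 0.01 with it (4 above, 3 below). The 17 paternally expressed genes had 0.01 and -0.06, and the 12 genes whose imprinting depends on tissue had 0.04 and -0.04. For doxycycline over none in clone 6 the medians were 0.05, 0.03 and -0.06 in the same order of groups. In clone 7 they were -0.14 for the maternally expressed genes (1 above, 6 below), 0.05 for the paternally expressed (12 above, 5 below) and 0.10 for the tissue-dependent (10 above, 2 below). Over all genes, 58.0% were above 0 for doxycycline in clone 7. The medians and splits by allele are descriptions of small groups with no test, and no imprinted gene was called for doxycycline. The maternally expressed group holds both Phlda2, with the largest negative difference, and H13 and Ascl2, which were higher in clone 6.

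The size of the differences was also described regardless of direction. The median absolute difference between the clones was 0.168 without doxycycline and 0.244 with it, beside 0.118 and 0.143 over all genes. It was 0.155 with doxycycline in clone 6 and 0.103 in clone 7, beside 0.0815 and 0.0777. Over the 4 groups, the highest value divided by the lowest had a median of 1.36 for the 35 genes at 1 FPKM or more in all groups, beside 1.18 for 11604 genes. That ratio was 1.5 or more for 13 of the 35 (37.1%) beside 12.8%, and for 11 of 33 (33.3%) without Snrpn and Snurf. Among genes at 10 FPKM or more in all groups it was 5 of 19 (26.3%) beside 6.41% of 6082. These are descriptions of single group values with no test, and only Peg3 (3.53) passed 2, beside 3.37% of all genes.

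Of the 36 genes, 24 (66.7%) had clone values that do not overlap, 11 with clone 6 above and 13 with clone 6 below, beside 60.5% of the 12566 genes under the same filter. The share is close to that background. The 13 include Snurf, whose value in 1 group is in conflict.

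The clone differences in the 2 media come from separate libraries and can be set side by side. Across the 36 genes, with Snrpn and Snurf at their conflicting listed values, Pearson's r was 0.817 and Spearman's rho 0.733. Without Peg3 and Phlda2 they were 0.609 and 0.683 over 34 genes. Over all 12566 genes r was 0.200 and rho 0.657, so by rank the imprinted genes were near the rest. Genes within a cluster share neighbours and libraries and are not independent points. For the doxycycline responses of the 2 clones, r was 0.234 and rho 0.247 over the 36 genes, beside -0.04 and 0.132 over all genes.

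**Figure D5:**
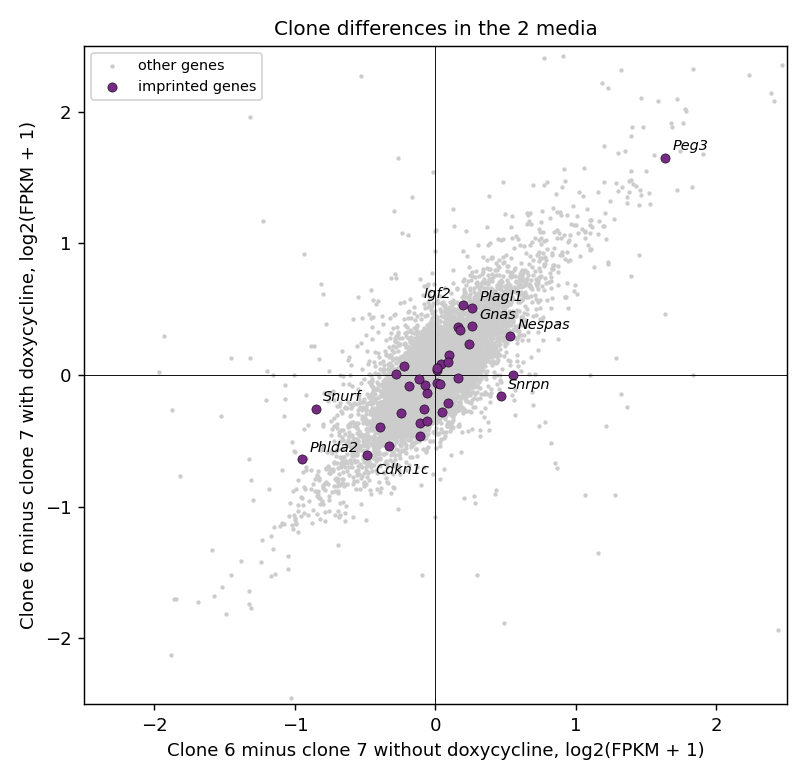
Clone 6 minus clone 7 on the log2(FPKM + 1) scale without doxycycline (x) and with it (y), for 12566 genes at 1 FPKM or more in some group, 36 of them imprinted (purple); 115 other genes lie outside the axes. Peg3 is far out in the upper right, Phlda2 and Cdkn1c are at the lower left, and the x values of Snrpn and Snurf rest on the conflicting values of 1 group.

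The factors that keep or erase imprints were present in both clones. Trim28, the corepressor that Zfp57 brings to imprinted control regions, was at 644, 611, 693 and 681 FPKM. The methyltransferase Dnmt3b was at 424, 331, 430.2 and 397 FPKM. Of 22 such factors tested, 2 were called between the clones without doxycycline and 4 with it, beside 1.37% and 1.52% of all tested genes, and none for doxycycline in either clone. At an unadjusted p under 0.05 it was 4 without doxycycline (Dnmt3l, Tet1, Tet2 and Zfp42) and 7 with it (these 4 with Dnmt3a, Eed and Zfp57), beside 6.59% and 7.90%. For doxycycline it was 3 in clone 6 (Ctcfl, Dnmt3b and Zfp42) and 0 in clone 7, beside 1.08% and 0.108% of all tested genes. Zfp42, which protects some imprinted regions from methylation (58.8, 88.3, 18.9 and 20.1 FPKM), was higher in clone 6 in both media. Dnmt3l, the cofactor of de novo methylation (119.6, 129.9, 206 and 230.1 FPKM), was lower in clone 6 in both media.

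With doxycycline the methylcytosine oxidases Tet1 (14.6, 14.7, 20.7 and 25.1 FPKM) and Tet2 (2.07, 2.36, 3.38 and 4.31 FPKM) were lower in clone 6. Zfp57, the reader of methylated imprints, was at 38.0, 41.3, 50.4 and 64.8 FPKM and was not called (q = 0.302 with doxycycline in the authors' deposited table). Ctcf was at 54.0, 50.5, 52.7 and 56.8 FPKM. Whether any of these levels bears on Peg3 or Phlda2 was not tested. A further 30 imprinted genes were listed apart from the 44, and 29 were in the table. Of these, 17 to 19 were tested in each of the 4 comparisons and none was called. At an unadjusted p under 0.05 it was 2 in each clone comparison (Sfmbt2 and Slc38a4) and 0 for doxycycline in either clone.

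The windows of 300 bases at the starts of the genes (250 before to 50 after) were looked up in RefSeq, with 52 windows for 36 of the 44 genes and none for H19, Cdkn1c, Kcnq1, Peg10, Sgce, Nespas, Impact and Dcn. The median window held 15.5 CpG dinucleotides and 58% G or C, beside 7 and 52.7% over 32851 windows of all genes. The Zfp57 motif TGCCGC, searched on both strands, was in 13 of the 52 windows (25%), beside 11.6% of all windows. The Ctcf core AGGGGGC, also on both strands, was in 11 (21.2%), beside 10.6%.

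Among windows with 15 or more CpG dinucleotides the shares were 35.7% of 28 beside 25.1% of 11378 for the Zfp57 motif, and 25% beside 19.6% for the Ctcf core. Neither string occurs in the printed stretches or in the windows of Peg3 and Phlda2. These matches describe letters in the windows, several of which overlap, and are no measure of binding.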

How the data were processed

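RNA from 8 libraries in 4 groups was analysed from 1 deposited gene table in the layout of Cuffdiff. Per the submitters' processing notes, TopHat2 2.0.8, Cufflinks 2.1.1 and mm10 were used. The role of each tool, the annotation, the strand setting and the normalization were not given in the sources used here. Deposited by the authors were 1 FPKM value per gene and group, a log2 fold change, a test statistic (a score with no fixed range), and a p-value and q-value for 6 comparisons, of which the 4 matched ones were used. The deposited q-value was checked and equals Benjamini-Hochberg adjustment over 78127 tests of all 6 comparisons to within 5.21e-07, and the smallest p-value is 5e-05. In 3.06% of tests a normal p of the statistic lies on another side of 0.05 than the deposited p. Among these are the tests of Cdkn1c, Peg3as, Vmn2r29, Igf2, Plagl1 and Peg10 reported above with a deposited p under 0.05. In 4 genes, Snrpn and Snurf among them, the deposited fold change is not the ratio of the deposited values (tolerance 0.01), and the response test omits them.

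Fold changes, medians on the log2(FPKM + 1) scale (genes at 1 FPKM or more in either group) and the normal test of the difference of the responses, adjusted over 12634 genes, were computed with Python 3.11.15, pandas 2.3.3, numpy 2.4.6 and scipy 1.17.1, after the script had been tested on simulated data. Values in all groups are given for called genes, then for genes with a fold of 1.5 or more, then for the others by cluster; genes of other lists are named where called or as the most abundant 3. Ctcf, Ctcfl, Zfp57, Zim3, Nap1l4, Vmn2r29, Peg3as and the cell markers fall outside this rule and were chosen after their values were seen. All 44 genes matched GENCODE M21, and 23 share the file's locus with another entry. Members and lists were chosen with earlier results of these data known. Library depth is unknown and limits the precision of low values. Alternatives were the adjustment, the q threshold, the pseudocount, the minimum, the centring, entries with several names and the source of the SE.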

Additional observations from a re-analysis of the deposited data

How the results depend on the processing

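No paired analysis was possible because the deposited table holds 1 value per group, without the experiment tags 8-21 and 8-25 that the library titles share, and for the same reason no library could be left out. Under 33 alternatives the counts of called members stayed within 1.5 times and the medians within 0.1 on the log2 scale of the values reported. That tolerance is wider than the medians themselves, which moved by more than 1.5 times in places. The alternatives were adjustment within each comparison, a q threshold of 0.1, entries with several names (0 held a member), a pseudocount of 0.1, no minimum or a minimum of 5 FPKM, centring, and the SE from the deposited p. The medians ran from 0.01 to 0.02 and from -0.06 to -0.02 between the clones (without and with doxycycline), and from 0.01 to 0.04 (highest at a minimum of 5 FPKM) and from 0.01 to 0.03 (lowest when centred) for doxycycline in clones 6 and 7. Adjusted within its comparison, q was 0.00673 for Peg3 and Phlda2 without doxycycline, and 0.00523 for Peg3 and 0.149 for Phlda2 with it. With 2 libraries per group and no value for each, a change in few reads or in 1 library could not be seen.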
